A study of Homo sapiens and Mus musculus with 12 samples.

Results

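The genes described here are 46 genes of DNA replication and of the G1/S step, the entry of a cell into DNA synthesis. They were taken by symbol from the human count table, which lists 60675 genes, and as mouse orthologs by gene description from the mouse count table, which lists 47729. All 46 were found in each table, and all 46 passed the filter on low counts in both species. The study asked how NOTCH2NL, a group of Notch-related genes of the human lineage, affects early cortical development, and it measured polyA RNA from cortical organoids, which are aggregates of stem cells differentiated towards cortex. For the human arm, the embryonic stem cell line H9 was differentiated and organoids were collected at week 4 (day 28) of differentiation as pools of 5 to 10 organoids, with 3 WT and 3 KO NOTCH2NL libraries. The WT columns carry 1 line code (H9_WT_E2del19) and the KO columns another (H9_KO_E5del42), so genotype and line cannot be told apart, and what the codes stand for is not analysed here. All human organoids received SB431542, Dorsomorphin, IWR-1-Endo and Cyclopamine, the last of these stopped before harvest. The mouse organoids came from stable lines of 46C embryonic stem cells with an empty vector (EV) or with a NOTCH2NL-Sh_T197I cDNA (N2NL), and were collected on day 6 as pools of 16 organoids, with 3 libraries each. Which promoter drives the cDNA was not stated in the labels. Nothing in the labels says whether pools came from separate cultures, so p-values measure the spread between these libraries, which may be technical.

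Eukaryotic DNA is copied once per cell cycle. In G1 the origin recognition complex (ORC), CDC6 and CDT1 load the ring-shaped MCM2-7 helicase onto origins, and in S phase CDC45 and the GINS complex turn it on. DNA polymerase alpha with primase starts each strand, the clamp PCNA and its loader RFC hand over to polymerases delta and epsilon, and FEN1 and LIG1 join the Okazaki fragments. D-type and E-type cyclins drive the step from G1 to S by releasing E2F transcription factors from the RB1 family, and many replication genes are textbook E2F targets. In the developing cortex these genes are expressed in dividing radial glia and intermediate progenitors and are turned off in neurons.

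Total counts per library were 15381409 to 16382938 in human and 16781742 to 20960391 in mouse. NOTCH2NL had 4, 5 and 3 counts in WT libraries 1 to 3 and no count in any KO library, and in the authors' deposited mouse table its normalized value was 0 in every EV library and 801, 709 and 740 in the N2NL libraries. In human, 4 to 6 of 8 pluripotency markers were at 0 counts in each library, POU5F1 having a count only in WT 3. The mouse organoids still held POU5F1 at 110 to 145 CPM, and the 8 markers together at 597 to 647 CPM in EV and 656 to 720 in N2NL. Telencephalon markers were present in all 12 libraries. CPM is the count of a gene relative to the library total, per 1e+06 counts, after scaling by the trimmed mean of M-values (TMM).

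In human organoids the replication genes moved together from library to library, and mainly within the WT group. Summed over the 46 genes, the level was 5390, 3330 and 4080 CPM in WT libraries 1 to 3 and 4550, 4530 and 3690 CPM in KO libraries 1 to 3. WT 1 was thus the highest and WT 2 the lowest of all libraries, and the KO libraries lay between them. Gene by gene, WT 1 was the highest WT library for 43 of 46 genes (93.5%, against 37.6% of all 16956 genes tested) and WT 2 the lowest for 43. The mitosis genes, with 24 of 26 (92.3%) and 26 of 26, and the other pathway genes, with 51 and 55 of 65 (78.5% and 84.6%), had the same order within WT, so it was not particular to the replication genes. Over all 6 libraries WT 2 was the lowest for 37 genes (80.4%, against 19.4% of all genes). Among the KO libraries, KO 3 was the lowest for 39 genes (84.8%, against 35.4%). The highest WT library exceeded the lowest by 1.56-fold at the median gene, with a range of 1.23 to 2.23, against 1.27 over all genes. The median coefficient of variation was 22.3% in WT and 9.79% in KO, where all genes, not matched for level, had 12.4% and 11.1%. Genes of a pathway measured in the same libraries share each library's makeup, so these shares are given as a description.

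**Figure D1:**
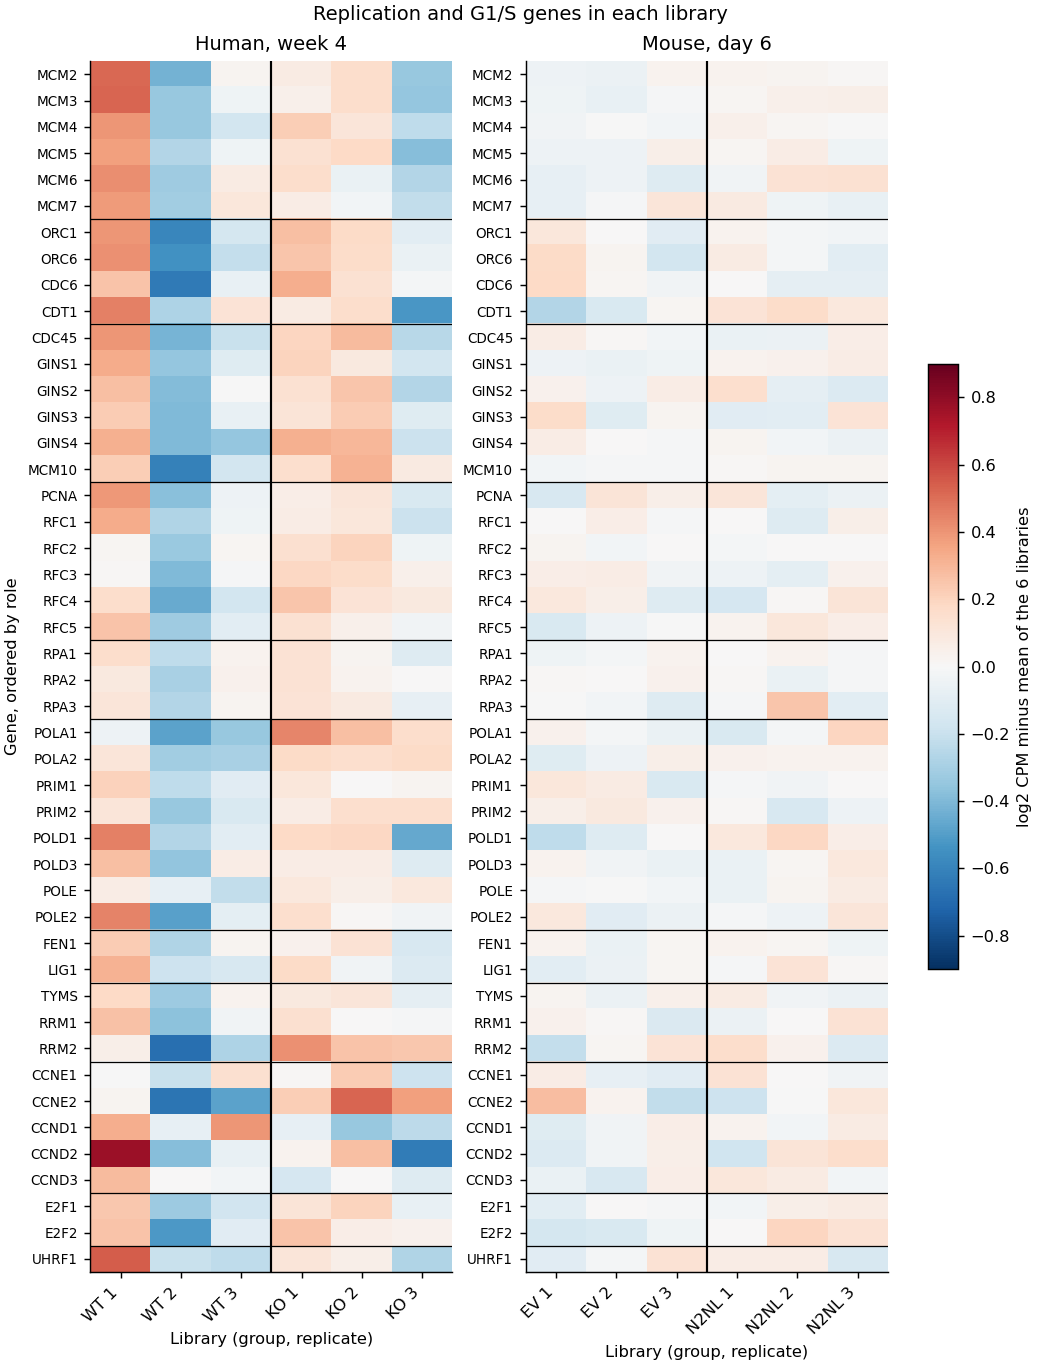
Level of each of the 46 genes in each library, as log2 CPM (with 0.5 CPM added) minus the mean of that gene over the 6 libraries of its species; rows are genes grouped by role (horizontal lines), columns are libraries, and the vertical line parts the groups. In human the columns of WT 1 and WT 2 stand out in opposite directions for nearly every row, while the mouse columns differ little.

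Of 5 telencephalon markers (EMX1, EMX2, LHX2, OTX2 and SIX3), EMX1, EMX2 and LHX2 followed this order within WT and were lowest of KO in KO 3, and OTX2 and SIX3 did not follow it. LHX2, a cortical selector gene, was at 333, 140 and 180 CPM in WT libraries 1 to 3 and 252, 321 and 122 CPM in KO. EMX2, a transcription factor of the dorsal telencephalon, was at 219, 102 and 153 CPM in WT and 160, 147 and 67.6 CPM in KO. OTX2, a forebrain and midbrain factor, had the opposite order within WT, at 26.4, 90.7 and 76.8 CPM, and was at 112, 165 and 118 CPM in KO. SIX3, a factor of the anterior forebrain and eye field, was at 6.61, 7.07 and 9.29 CPM in WT and 30.7, 25.4 and 37.6 CPM in KO, and rose in KO (log2 fold change 2.03 ± 0.19, adjusted p = 0.000309 in edgeR's test). The 5 markers together reached 391 to 697 CPM in WT and 363 to 736 CPM in KO, none at 0. TTR, a transthyretin gene typical of choroid plexus, had the opposite order within WT, at 252, 2110 and 1090 CPM, and in KO was at 1320, 4120 and 3440 CPM, highest in KO 2, where the replication sum was close to that of KO 1. It made up most of the 10 markers of mesoderm, endoderm and epithelium, whose sum was 279 to 2120 CPM in WT and 1360 to 4150 CPM in KO, and of which T and SOX17 were at 0 in every library. The 14 neuron markers together were at 4050, 4880 and 4800 CPM in WT and 4500, 3850 and 5180 CPM in KO. This sum was lowest of WT in WT 1 and highest of all in KO 3. A sum is weighted to abundant genes, so the mean log2 deviation (log2 CPM minus the gene's mean, averaged over the markers) was also taken. It was 0.06, 0.05 and 0.09 in WT and 0.03, -0.09 and -0.13 in KO, lowest of all in KO 3. The 10 radial glia markers together were at 4400, 4630 and 4800 CPM in WT and 4500, 3550 and 4230 CPM in KO. The order of this sum was unlike that of the replication genes. The mean log2 deviation of the markers was 0.01, -0.14 and -0.08 in WT and 0.23, -0.06 and 0.04 in KO. That of the replication genes was 0.27, -0.35 and -0.08 in WT and 0.14, 0.13 and -0.11 in KO. By this measure both lists had the same order within WT but not within KO. Of the markers, 1 passed (NOTCH1, as lower, -0.39 ± 0.10, adjusted p = 0.0456). SLC1A3, a glial glutamate transporter, had 118, 62.2 and 91.4 CPM in WT and 236, 159 and 200 CPM in KO (1.14 ± 0.26, 0.066). The part of cell makeup in the order of the libraries was not tested, and in pooled organoids fewer dividing cells and less RNA per cell cannot be told apart.

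**Figure D2:**
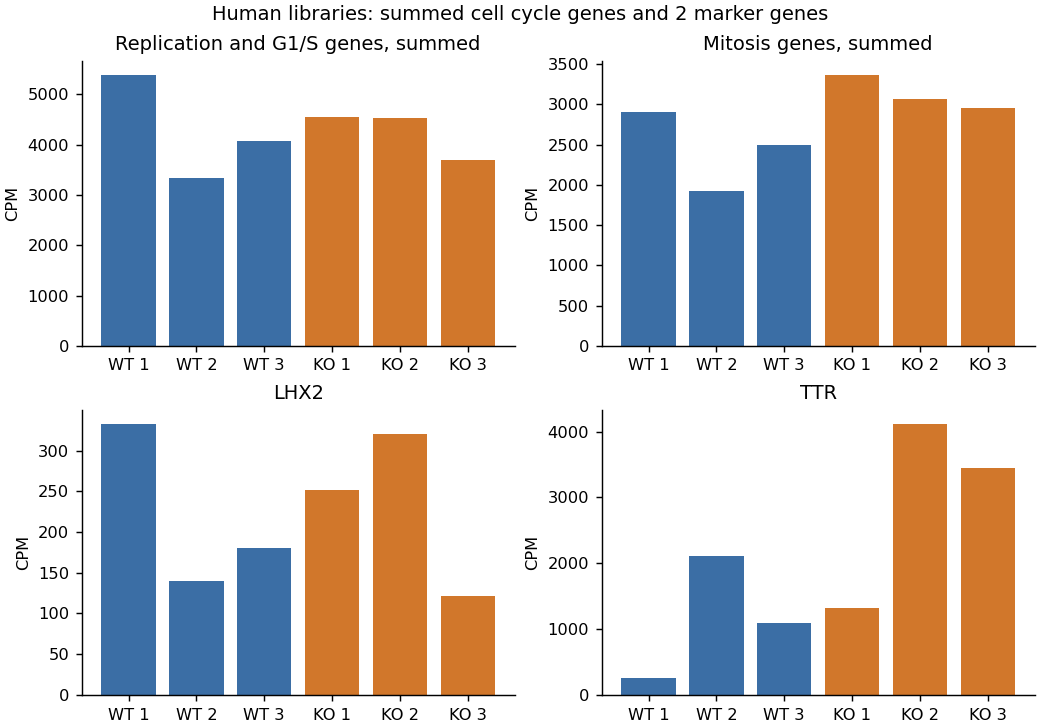
Summed CPM of the 46 replication and G1/S genes and of 26 mitosis genes, and CPM of LHX2 and TTR, in each human library; bars start at 0, blue for WT and orange for KO. The replication sum falls from 5390 in WT 1 to 3330 in WT 2, LHX2 follows it within WT, and TTR runs opposite to it within WT.

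The promoters of these genes are described next, and whether their motifs relate to the order of the libraries was not tested. RefSeq windows (GRCh38.p14) were on hand for 37 of the 46, and the 250 bases before each start were searched on both strands for the E2F motifs TTTCCCGC, TTTGGCGC, TTTCGCGC and TTTGCCGC, which can overlap one another. At least 1 of the 4 stood in a window of 15 of 37 replication genes (40.5%), of 14 of 57 other pathway genes (24.6%), of 2 of 21 mitosis genes (9.52%) and of 928 of 27305 genes in the table (3.4%). The letters TTTGAA, known from promoters of mitosis genes as the CHR element, stood in windows of 1 replication gene (2.7%), of 13 mitosis genes (61.9%) and of 16.1% of all genes. The letters CCAAT stood in windows of 22 replication genes (59.5%), 17 mitosis genes (81%) and 37% of all genes. A gene was counted if any of its listed windows held the letters, and a match is a description, not a binding site. Printed below are 100-base stretches, 5′ to 3′ on the gene's strand, from windows without an annotated exon, with the E2F letters in capitals. POLA1 is shown as the 1 member that passed the test between the human groups, and MCM6 for its repeated motif. E2F2 and UHRF1 are shown as a factor of the E2F family and a DNA methylation cofactor, each with 1 of the 4 motifs in the window printed. Another listed window of UHRF1 held a match to TTTCCCGC.
POLA1: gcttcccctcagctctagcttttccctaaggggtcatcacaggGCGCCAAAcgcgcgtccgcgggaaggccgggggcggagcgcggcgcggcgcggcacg
MCM6: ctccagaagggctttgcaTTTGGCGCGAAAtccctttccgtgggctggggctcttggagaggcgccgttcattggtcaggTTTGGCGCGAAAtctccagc
E2F2: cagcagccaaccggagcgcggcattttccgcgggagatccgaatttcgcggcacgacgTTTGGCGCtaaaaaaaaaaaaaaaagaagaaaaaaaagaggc
UHRF1: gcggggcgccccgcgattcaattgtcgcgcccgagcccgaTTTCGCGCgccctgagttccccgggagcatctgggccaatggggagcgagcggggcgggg
The POLA1 stretch lies at chrX:24693738-24693837 (plus strand), the MCM6 stretch at chr2:135876514-135876613 (minus strand), the E2F2 stretch at chr1:23531234-23531333 (minus strand) and the UHRF1 stretch at chr19:4909944-4910043 (plus strand). Each run of capitals in MCM6 is a pair of overlapping matches, one on each strand, which gives 4 matches in all.

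Between the human groups, 1 of the 46 genes passed the test, POLA1, and it was higher in KO. With edgeR's quasi-likelihood test and Benjamini-Hochberg adjustment over the 16956 genes tested, 932 genes of the transcriptome passed an adjusted p of 0.05 (5.5%), 391 of them higher in KO (2.31%) and 541 lower (3.19%). The members' share, 1 of 46, was not above this background. At an unadjusted p of 0.05, 4 members were higher and 1 lower (10.9% in all, against 22.8% of all genes, 10.7% higher and 12.1% lower). The WT and KO libraries did not overlap for 5 members higher in KO and 1 lower (13% in all, against 28.8% of all genes, 14.1% higher and 14.8% lower). The log2 fold change, KO minus WT, was above 0 for 31 members and below 0 for 15, where all genes split into 49.3% above and 50.7% below, and its median over the members was 0.07 where that of all genes was 0. Leaving out WT 1, the library richest in replication mRNA, 7 members passed as higher in KO (ORC6, MCM10, RFC4, POLA1, POLA2, RRM2 and CCNE2), against 3.8% of 17410 genes, and the median was 0.23. Leaving out WT 2, the poorest, only CCND1 passed, as lower (against 1.42% of 17349 genes), and the median was -0.05. These 2 libraries were singled out by the members' own levels, so the direction of both shifts was set in advance. The shares of all genes are not a like comparison for them, and the counts show only how far the calls rest on single libraries.

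**Figure D3:**
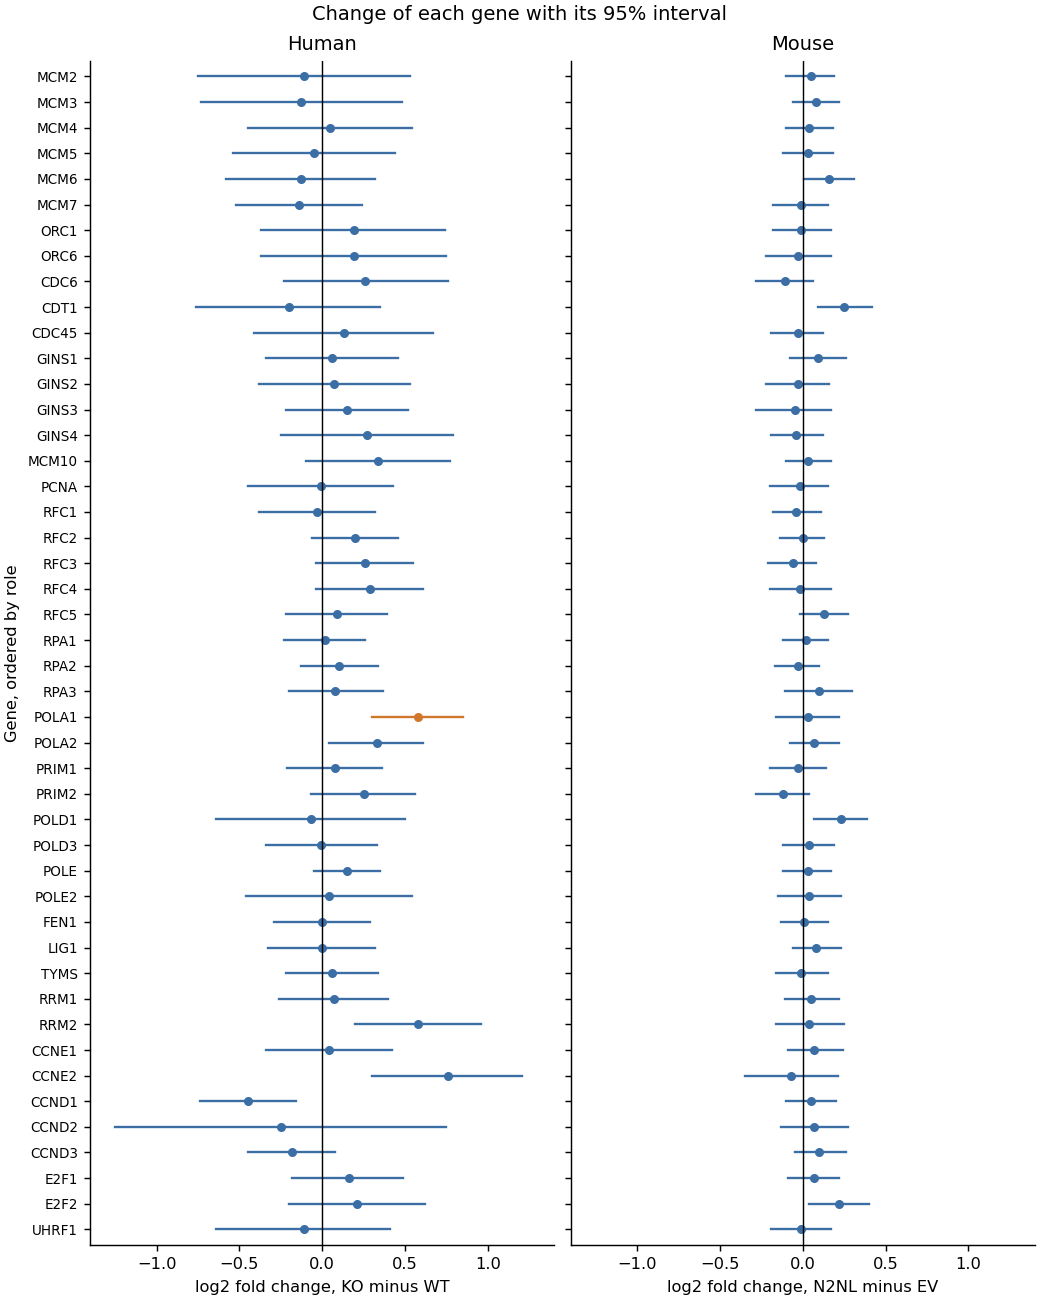
log2 fold change of each gene (points) with its 95% interval from the quasi-likelihood fit (lines), KO minus WT in human on the left and N2NL minus EV in mouse on the right; orange marks an adjusted p under 0.05. POLA1 in human is the 1 orange point, and the human interval is wider than the mouse interval for all 46 genes.

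The catalytic subunit of DNA polymerase alpha, POLA1 (ENSG00000101868, chrX:24693919-24996986, GRCh38), which together with primase lays down the first stretch of every new strand, was at 69.7, 51.3 and 56.7 CPM in WT libraries 1 to 3 and at 97.8, 86.9 and 80.4 CPM in KO. All KO libraries lay above all WT libraries. The log2 fold change was 0.58 ± 0.12 (SE, n = 3 and 3), with an adjusted p of 0.0262 in edgeR's test. The call was lost without WT 2 (adjusted p = 0.0656), WT 3 (0.13), KO 1 (0.112) or KO 2 (0.0739), with log2 fold changes of 0.49 to 0.59. POLA2, the regulatory subunit of the same enzyme, was at 34.9, 26.0 and 26.3 CPM in WT and 36.6, 36.0 and 36.6 CPM in KO. Its groups also did not overlap, though WT 1 was close to KO, and the log2 fold change of 0.33 ± 0.13 did not pass (adjusted p = 0.164). The primase subunits PRIM1 and PRIM2 had log2 fold changes of 0.08 ± 0.13 and 0.25 ± 0.14, and their groups overlapped. POLE, the catalytic subunit of the leading-strand polymerase epsilon, was at 170, 154 and 139 CPM in WT and 173, 168 and 173 CPM in KO (log2 fold change 0.15 ± 0.09, adjusted p = 0.345). POLD1, POLD3 and POLE2 lay between -0.07 and 0.04.

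Supply of deoxynucleotides is rate-limited by ribonucleotide reductase, whose S-phase subunit RRM2 (chr2:10120698-10131419) was at 72.1, 43.1 and 57.1 CPM in WT and 92.3, 82.9 and 82.3 CPM in KO. Every KO library was above every WT library. The log2 fold change of 0.58 ± 0.17 was as large as that of POLA1 but more spread, and its adjusted p was 0.0875. RRM1, the large subunit of the same enzyme, had 0.07 ± 0.14. TYMS, thymidylate synthase, was at 182, 128 and 164 CPM in WT and 171, 173 and 152 CPM in KO, and its groups overlapped (0.06 ± 0.12).

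Cyclins of the G1/S step differed among themselves. CCNE2, an E-type cyclin that activates CDK2, had the lowest level of the 46 per length of exon, and was at 10.4, 6.28 and 7.16 CPM in WT and 12, 14.9 and 13.3 CPM in KO. Its groups did not overlap, and its log2 fold change of 0.76 ± 0.20 was the largest of the 46 (adjusted p = 0.0595). CCNE2 overlaps INTS8 and NDUFAF6 on the opposite strand, whose log2 fold changes were 0.23 and 0.33, and whether reads were counted by strand was not stated in the labels. CCNE1, the paralogous E-type cyclin, was at 11.4, 9.87 and 12.7 CPM in WT and 11.5, 13.5 and 10.0 CPM in KO (0.04 ± 0.17), with no separation of the groups. CCND1, a D-type cyclin that partners CDK4 and CDK6, was the 1 member whose KO libraries all lay below WT, by a small margin, with 75.0, 56.8 and 79.0 CPM in WT and 56.7, 47.2 and 50.6 CPM in KO (-0.45 ± 0.13, adjusted p = 0.0762). CCND2, the D-type cyclin of cortical progenitors, had the widest spread of all members in WT, at 640, 288 and 359 CPM, and 384, 454 and 243 CPM in KO. Its groups overlapped and its 95% interval ran from -1.25 to 0.75. CCND3 was at 38.2, 31.3 and 30.6 CPM in WT and 28.0, 31.2 and 28.8 CPM in KO (-0.18 ± 0.12, adjusted p = 0.385).

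The test also bears on which tool is used, since 4 members passed with DESeq2 on the same counts: POLA1, RRM2 and CCNE2 as higher (adjusted p = 0.00209, 0.013 and 0.0194) and CCND1 as lower (0.0491), against 7.12% of 18887 genes. The authors' deposited table gave the same 4 genes an adjusted p under 0.05, with log2 fold changes of 0.54, 0.52, 0.63 and -0.41. RRM2, CCNE2 and CCND1 thus stood near the threshold, on the side that depended on the tool.

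**Figure D4:**
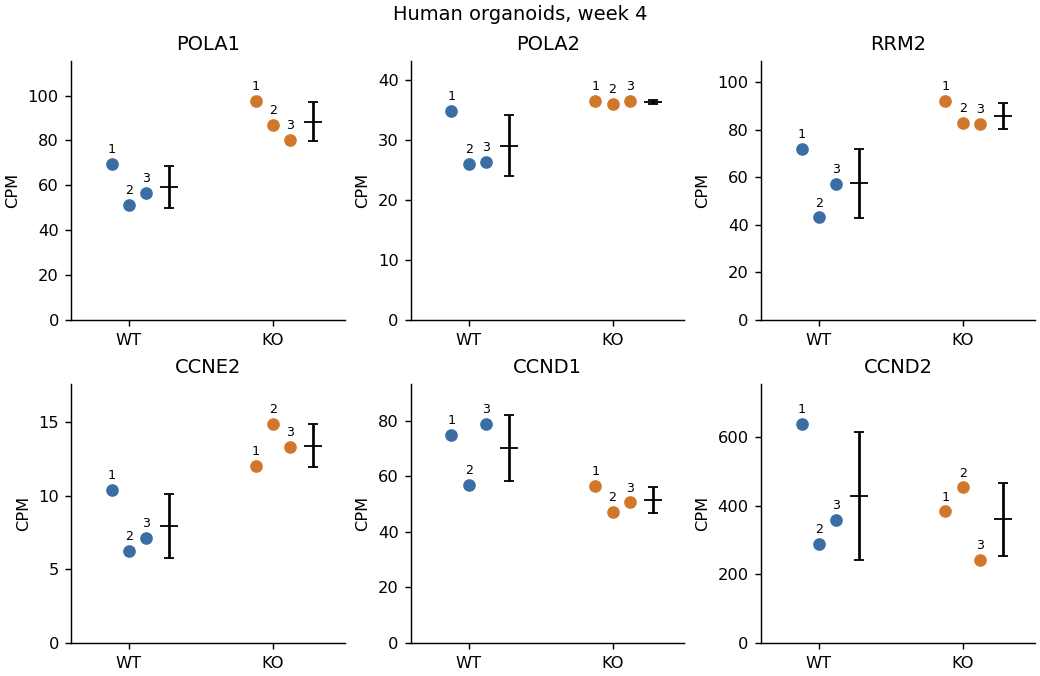
CPM of POLA1, POLA2, RRM2, CCNE2, CCND1 and CCND2 in each human library (points, numbered by replicate), with the mean and SD of each group (bar and whiskers, n = 3). The KO points lie above the WT points for POLA1, POLA2, RRM2 and CCNE2, below them for CCND1, and among them for CCND2.

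None of the 6 subunits of the MCM2-7 helicase passed, and their log2 fold changes ran from -0.14 to 0.05, with 1 above 0. MCM2 was at 314, 163 and 223 CPM in WT and 231, 245 and 173 CPM in KO, so that WT alone spanned the whole KO range (-0.11 ± 0.26, adjusted p = 0.848). MCM5 was at 198, 127 and 149 CPM in WT and 168, 173 and 117 CPM in KO (-0.05 ± 0.21). MCM7, the subunit with the highest level per length of exon, was at 619, 383 and 510 CPM in WT and 498, 466 and 408 CPM in KO (-0.14 ± 0.17, adjusted p = 0.663). The upper ends of their 95% intervals ran from 0.24 for MCM7 to 0.54 for MCM4. The sign of MCM2, MCM3, MCM5, MCM6 and MCM7 turned without WT 1. For each of these genes WT 1 was the highest of all libraries, so the direction of that shift was set in advance.

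Of the licensing genes, ORC1, the largest subunit of the origin recognition complex, was at 35.2, 17.6 and 23.8 CPM in WT and 32.3, 30.0 and 24.9 CPM in KO (0.19 ± 0.24). CDC6, which helps ORC to load the helicase, was at 38.4, 20.4 and 30.6 CPM in WT and 40.2, 35.3 and 31.6 CPM in KO (0.26 ± 0.21). CDT1, the partner of CDC6 that is destroyed once S phase begins, was at 55.7, 33.3 and 44.2 CPM in WT and 42.6, 45.2 and 28.0 CPM in KO (-0.20 ± 0.24). Groups overlapped for all 4 licensing genes, ORC6 included, and none passed.

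The genes that turn the helicase on all had fold changes above 0, 6 of 6, and none passed. CDC45 was at 35.4, 19.9 and 23.2 CPM in WT and 30.7, 32.7 and 22.4 CPM in KO (0.13 ± 0.23). GINS2, a subunit of the GINS complex, was at 142, 89.5 and 117 CPM in WT and 129, 140 and 97.9 CPM in KO (0.07 ± 0.19). MCM10, a scaffold of the active helicase, was at 35.5, 19.8 and 27.1 CPM in WT and 33.8, 37.9 and 32.2 CPM in KO (0.34 ± 0.19, adjusted p = 0.336). WT 1 was at or above the lowest KO library for all 6, and WT 2 was below every KO library for all 6.

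PCNA, the sliding clamp, had the highest level of the 46 per length of exon, 162 ± 44.0 CPM per kilobase in WT (SD, n = 3), ahead of MCM7 at 115 ± 26.8, a gap within the spread of the WT libraries, and CCNE2 had the lowest, 1.80 ± 0.49. Its CPM were 308, 180 and 227 in WT and 244, 253 and 213 in KO, with a log2 fold change of -0.01 ± 0.19, which turned sign with library size alone, and a 95% interval of -0.45 to 0.43. RFC1, the large subunit of the clamp loader, was at 102, 67.1 and 78.7 CPM in WT and 84.7, 87.0 and 70.7 CPM in KO (-0.03 ± 0.15). RFC3, a small subunit, was at 25.3, 19 and 24.9 CPM in WT and 28.6, 28.2 and 26.0 CPM in KO, the 1 clamp-loader gene whose groups did not overlap (0.26 ± 0.13, adjusted p = 0.279). RFC2, RFC4 and RFC5 had log2 fold changes of 0.20, 0.29 and 0.09.

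No gene of the remaining roles passed. RPA2, of the complex that coats single-stranded DNA, was at 89.4, 68.8 and 86.5 CPM in WT and 92.0, 86.0 and 84.5 CPM in KO (0.10 ± 0.11). FEN1, the flap nuclease of Okazaki fragments, was at 86.8, 61.2 and 75.2 CPM in WT and 75.9, 81 and 66.9 CPM in KO (0 ± 0.13), and LIG1, the ligase that seals them, also had 0 ± 0.14. E2F1, an activator of the G1/S genes, was at 72.5, 48.6 and 54.1 CPM in WT and 66.3, 70.3 and 58.4 CPM in KO (0.16 ± 0.15), and E2F2 had 0.21 ± 0.18 with a 95% interval of -0.20 to 0.62. UHRF1, which brings DNMT1 to newly copied DNA, was at 58.9, 34.9 and 34.3 CPM in WT and 43.4, 41.8 and 33.3 CPM in KO (-0.11 ± 0.23). Groups overlapped for each of these genes.

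Among 66 other genes of replication and G1/S control, 65 were tested and none passed in edgeR's test. At an unadjusted p of 0.05, 8 were higher and 2 lower (against 10.7% and 12.1% of all genes). DESeq2 called 1 (against 7.12% of all genes), and the median log2 fold change was 0.06. The 3 with the smallest p were CDKN2D, an inhibitor of CDK4 and CDK6, with 54.6, 65.3 and 57.1 CPM in WT and 47.3, 39.8 and 48.1 CPM in KO (-0.39 ± 0.11, adjusted p = 0.0691), the S-phase cyclin CCNA2 with 52.0, 40.5 and 47.2 CPM in WT and 63.2, 60.0 and 57.9 CPM in KO (0.38 ± 0.11, 0.0713), and RB1, which holds E2F factors in check, with 50.9, 43.4 and 46.8 CPM in WT and 58.3, 55.3 and 62.9 CPM in KO (0.32 ± 0.10, 0.0861). None of these groups overlapped. The inhibitor CDKN1A, a p53 target, was at 104, 98.0 and 143 CPM in WT and 83.6, 87.2 and 82.8 CPM in KO (-0.44 ± 0.13, adjusted p = 0.0896), again without overlap. CDKN1B had 69.7, 69.6 and 66.0 CPM in WT and 77.5, 75.6 and 77.1 CPM in KO, and CDKN1C had 21.4, 44.0 and 39.4 CPM in WT and 26.5, 14.2 and 30.7 CPM in KO. The kinases CDK4 (290, 205 and 239 CPM in WT; 273, 271 and 223 in KO) and CDK6 (52.2, 50.8 and 59.6 in WT; 60.4, 38.9 and 50.7 in KO) overlapped between groups. Leaving out WT 1, 12 of these genes passed, 11 higher and 1 lower, where 8.27% of all 17410 genes passed. WT 1 was the highest WT library for 78.5% of these genes, so the direction of that shift was set in advance.

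Mitosis genes, of the next phase of the cycle, had a higher median than the replication genes. Of 26 tested, all had a log2 fold change at or above 0 and 2 passed as higher in KO (against 2.31% of all genes), with a median of 0.35. CCNB1, the cyclin of mitotic entry, was at 110, 83.8 and 107 CPM in WT and 146, 142 and 138 CPM in KO (0.50 ± 0.11, adjusted p = 0.0269). CENPE, a kinetochore motor, was at 47.2, 29.3 and 42.5 CPM in WT and 70.1, 65.0 and 62.8 CPM in KO (0.73 ± 0.16, 0.0325). NDC80, of the outer kinetochore, followed with 41.1, 30.3 and 33.2 CPM in WT and 49.4, 46.0 and 49.7 CPM in KO (0.47 ± 0.12, 0.0526). Over all 6 libraries KO 1 was the highest for 17 of the 26 mitosis genes (65.4%, against 14.2% of all genes) and WT 1 for 28 of the 46 replication genes (60.9%, against 19.9%), while within WT both lists had the same order. The difference between the medians of the lists was not tested. No mitosis gene passed without WT 3, KO 1, KO 2 or KO 3, against 1.29%, 1.44%, 2.91% and 3.03% of all genes. With all libraries the share of all genes was 5.5%. Without WT 1, 13 mitosis genes passed as higher, against 3.8% of all genes. WT 1 was the highest WT library for 92.3% of the mitosis genes, so the direction of the shift without it was likewise set in advance.

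In mouse organoids none of the 46 genes passed the test between N2NL and EV (smallest adjusted p = 0.456 in edgeR's test). No member was called with DESeq2, where 30 of 8710 genes passed (0.344%). The authors' deposited table called no member either, and there 148 of 12781 genes with an adjusted p were under 0.05. Over all 16682 genes in edgeR's test, 2 passed (0.012%), both higher in N2NL (0.012%), and 0 lower (0% of genes). At an unadjusted p of 0.05, 4 members were higher and 0 lower, against 7.45% of all genes, 5.11% higher and 2.34% lower. Groups did not overlap for 8 members higher and 1 lower, against 12.7% of all genes, 7.39% higher and 5.31% lower. The log2 fold change was above 0 for 27 members, where all genes split into 48.3% above and 51.7% below, and the median was 0.03 (-0.01 over all genes). The summed level was 7610, 7760 and 7970 CPM in EV and 7950, 8080 and 8000 CPM in N2NL. Libraries of a group were close, with a median coefficient of variation of 4.17% in EV and 4.67% in N2NL, where all genes had 8.97% and 9.5%. All genes were not matched to the members for level, so the lower values are not shown to be particular to these genes.

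The 4 mouse genes of smallest p belonged to different steps. Cdt1, the licensing factor, was at 98.1, 107 and 119 CPM in EV and 128, 132 and 126 CPM in N2NL (log2 fold change 0.25 ± 0.08, adjusted p = 0.456). Pold1, the catalytic subunit of polymerase delta, was at 115, 124 and 135 CPM in EV and 144, 153 and 140 CPM in N2NL (0.23 ± 0.08, 0.493). E2f2, an activator E2F, was at 40.1, 40.6 and 43.6 CPM in EV and 44.8, 51.2 and 49.1 CPM in N2NL (0.22 ± 0.08, 0.589). Mcm6 was at 295, 301 and 287 CPM in EV and 304, 340 and 342 CPM in N2NL (0.16 ± 0.07, 0.658). All N2NL libraries exceeded all EV libraries for these genes, and for Rfc5 as well (121, 129 and 133 against 136, 143 and 139 CPM). EV 3, however, was the highest EV library for Cdt1, Pold1 and E2f2 and stood near the N2NL range.

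At the other end, Prim2, a primase subunit, was at 68.5, 70.0 and 67.8 CPM in EV and 66.5, 59.6 and 63.9 CPM in N2NL (-0.12 ± 0.07, adjusted p = 0.779), the 1 member with all N2NL libraries below EV. Cdc6 was at 82.5, 73.9 and 71.2 CPM in EV and 73.1, 69.0 and 68.8 CPM in N2NL (-0.11 ± 0.08). The next lowest were Ccne2 (26.7, 22.4 and 18.7 CPM in EV; 19.2, 21.8 and 23.5 in N2NL), Rfc3 (131, 132 and 123 in EV; 122, 118 and 129 in N2NL) and Gins3 (30.9, 25.5 and 28.0 in EV; 25.6, 25.8 and 30.1 in N2NL). Their groups overlapped.

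**Figure D5:**
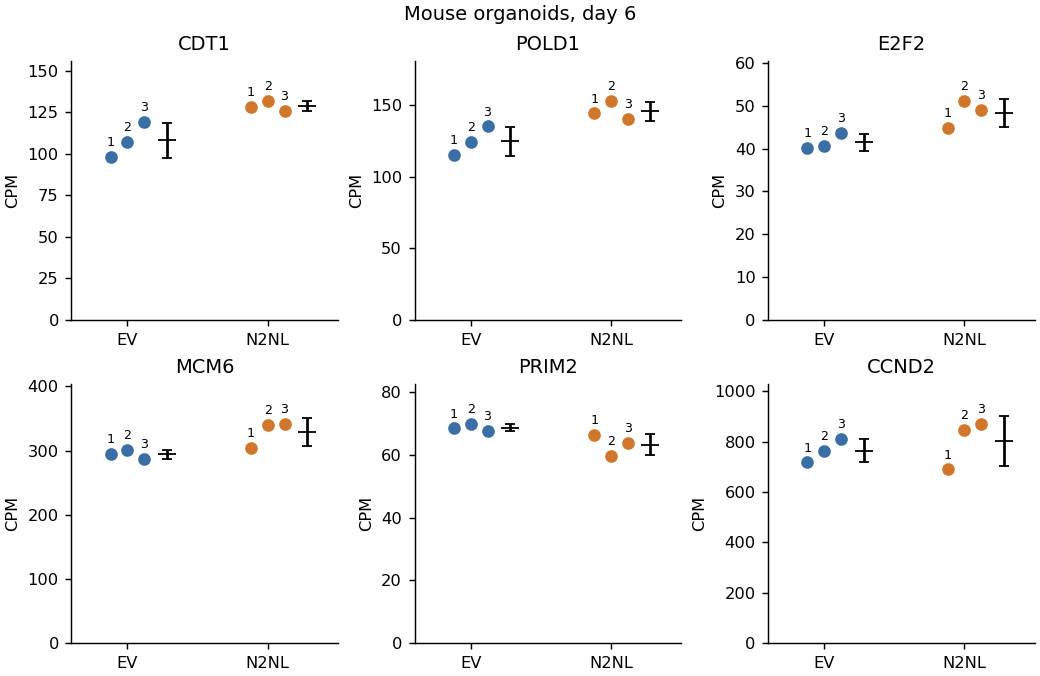
CPM of the mouse orthologs of CDT1, POLD1, E2F2, MCM6, PRIM2 and CCND2 in each library (points, numbered by replicate), with the mean and SD of each group (bar and whiskers, n = 3). The N2NL points lie above the EV points for the first 4 genes, below them for PRIM2 and on both sides for CCND2.

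The genes that stood out in human did not pass in mouse. Pola1 was at 55.7, 53.6 and 52.1 CPM in EV and 49.4, 53.5 and 62.1 CPM in N2NL (0.03 ± 0.09), and Rrm2 at 358, 420 and 451 CPM in EV and 462, 426 and 380 CPM in N2NL (0.04 ± 0.09). Ccnd1 was at 136, 143 and 153 CPM in EV and 150, 144 and 154 CPM in N2NL (0.05 ± 0.07), and Ccnd2 at 717, 764 and 809 against 689, 846 and 871 CPM (0.07 ± 0.09). Groups overlapped for each of them. The human and mouse comparisons differ in gene dose, stage and species, and the difference between them was not tested.

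Most of the core replisome was level in mouse. Mcm2 was at 384, 382 and 405 CPM in EV and 406, 404 and 399 CPM in N2NL, and Mcm5 at 360, 361 and 385 against 376, 389 and 362 CPM. Pcna was at 232, 278 and 266 CPM in EV and 276, 241 and 247 CPM in N2NL, and a listed Pcna pseudogene, with which it may share reads, was at 42.5 to 53.3 CPM. Orc1 (60.2, 56.2 and 52.2 in EV; 57.4, 55.4 and 55.0 CPM in N2NL), Cdc45 (77.7, 75.0 and 73.1; 71.3, 71.6 and 77.6) and Gins2 (56.4, 53.1 and 57.6; 60.9, 51.8 and 50.4) overlapped between the groups. So did Rfc1 (149, 155 and 147 CPM in EV; 149, 137 and 154 in N2NL), Rpa2 (150, 149 and 153; 150, 143 and 148), Pole (125, 126 and 124; 121, 128 and 133) and Fen1 (148, 139 and 147; 148, 147 and 141). Tyms (82.9, 78.6 and 84.2 CPM in EV; 86.0, 79.8 and 78.9 in N2NL), Ccne1 (92.0, 83.7 and 82.0; 96.5, 88.2 and 86.1), E2f1 (64.3, 69.0 and 68.2; 67.4, 71.4 and 72.4) and Uhrf1 (321, 341 and 378; 361, 362 and 312) overlapped as well.

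All 66 other pathway genes were tested in mouse and none passed in edgeR's test or with DESeq2, with 6 higher and 1 lower at an unadjusted p of 0.05 (against 5.11% and 2.34% of all genes) and a median log2 fold change of 0.02. The smallest p belonged to Ticrr, an activator of origin firing (65.7, 65.8 and 69.8 CPM in EV; 70.4, 83.9 and 88.2 in N2NL), to E2f4, a repressor E2F (117, 120 and 130; 139, 139 and 142), and to Chtf18, of an alternative clamp loader (51.1, 49.2 and 57.5; 59.7, 64.0 and 59.8). These were higher in every N2NL library. The inhibitors Cdkn1a (52.7, 56.4 and 57 CPM in EV; 46.0, 56.0 and 48.0 in N2NL), Cdkn1b (195, 203 and 183; 171, 187 and 194) and Cdkn1c (609, 385 and 385; 487, 367 and 324) overlapped, as did Cdk4 (1060, 1030 and 1080; 1050, 1020 and 950) and Cdk6 (34.2, 39.8 and 40.4; 30.6, 45.8 and 50.6). Of 26 mitosis genes none passed either. At an unadjusted p of 0.05, 1 was higher, against 5.11% of all genes in edgeR's test. DESeq2 gave 1 by the same rule, for which no share of all genes is given here. Plk1, a mitotic kinase, had 117, 126 and 133 CPM in EV and 141, 148 and 137 CPM in N2NL, Aurkb 95.5, 100 and 102 against 106, 109 and 104 CPM, and Mki67 371, 375 and 365 against 372, 396 and 423 CPM.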

How the data were processed

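Both count tables hold raw counts per Ensembl gene, as deposited by the authors. HTSeq 0.6.1p1, the aligners STAR 2.4.0 and Bowtie2 2.3.3.1, the trimmer Trimmomatic 0.36 and DESeq2 2.11.39 are listed in the submitters' processing notes, with the builds GRCh38 and GRCm38; their settings, strand included, were not stated there. The authors' deposited DESeq2 tables hold normalized values rounded to whole numbers (treated as scores), log2 fold changes and adjusted p-values. In the human one the columns of replicates 1 and 3 are exchanged within each group relative to the raw counts, so replicate numbers follow the raw counts. HTSeq's summary lines in the mouse table (no feature 5.77% to 6.5% and not unique 26.6% to 33.7% of all lines' counts) were left out.

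Libraries were grouped by genotype from the labels. Counts were fitted per species across all genes with edgeR 4.0.16 (filterByExpr, TMM, robust glmQLFit, glmQLFTest, R 4.3.3, adjusted p under 0.05). The 46 genes and the other lists were chosen with earlier results of these data known. Values were printed for members past the threshold, the 5 highest and 5 lowest fold changes per species, and fixed members of each role; of the other lists, for genes past the threshold, the 3 of smallest p and CDK4, CDK6 and the CDKN1 inhibitors. Alternatives were RLE factors, library size alone, DESeq2 1.42.0, no count filter, no robust step, a replicate block and leaving out each library. On simulated counts for the human design (16701 genes) the fit recovered 1 of 49 genes changed 1.25-fold, 17 of 49 changed 1.5-fold and 33 of 48 changed 2-fold. For the mouse design (16476 genes) it recovered 4 of 50, 34 of 49 and 40 of 49. It also called 5 unchanged genes in human and 12 in mouse. The largest mouse change among the members, that of Cdt1, was 19.2%. Genes were simulated independently, so the shared swings of the human libraries were not part of it. Exon lengths came from GENCODE and promoters from RefSeq. One planned telencephalon marker is not reported here.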

Additional observations from a re-analysis of the deposited data

How the results depend on the processing

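With RLE factors no replication gene changed its direction or its call in either species; with library size alone none changed its call, and in human PCNA and POLD3, both near 0, turned sign. In human, the count of all genes called went from 932 to 2155 without the count filter, and to 224 to 1440 when leaving out a library. The count of replication genes called went from 1 to 4 with DESeq2 and without the filter, to 3 under the replicate block, and to 0 to 7 when leaving out a library. Other pathway genes called went from 0 to 1 with DESeq2, 6 without the filter and 0 to 12 when leaving out a library, and mitosis genes from 2 to 4 with library size alone, 6 with DESeq2, 12 without the filter, 6 under the block and 0 to 13 when leaving out a library. The share of all human genes called, 5.5% in the main fit, was 5.36% with library size alone and 7.12% with DESeq2. It was 6.55% without the filter, 5.3% under the block and 1.29% to 8.27% when leaving out a library. In mouse, all genes called went from 2 to 30 with DESeq2, 117 without the filter, 1 without the robust step, 21 under the replicate block and 0 to 17 when leaving out a library, and the replication genes' median went from 0.03 to 0.02 with library size alone and to 0.02 to 0.03 when leaving out a library. The cause of these shifts was not tested. The labels give same-numbered libraries only a number in common, and whether they shared a batch was not tested. Their deviations from the group means, over all genes, correlated at 0.24, -0.14 and 0.15 in human and 0.19, 0.03 and -0.01 in mouse. WT 1, WT 3 and EV 1 correlated best with the library of their own number. WT 2 correlated best with KO 3 (0.32), and EV 2 and EV 3 also with a library of another number. CCNE2 rests on 103 to 234 counts per human library, with an SE of 0.20. The largest SE of the human members was that of CCND2 (0.39), which had 3980 to 9883 counts.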

Other observations

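The levels of some members were also set against the summed MCM2-7 helicase of the same library, a scale chosen after the values above were known and given without a test. The sum was 1900, 1120 and 1430 CPM in WT libraries 1 to 3 and 1510, 1480 and 1160 CPM in KO. Per 1000 CPM of MCM2-7, POLA1 was at 36.6, 45.8 and 39.7 in WT and 64.6, 58.6 and 69.3 in KO, and RRM2 at 37.9, 38.5 and 40.0 in WT and 60.9, 55.8 and 71 in KO. On this scale the WT libraries of RRM2 were nearly level, where in CPM they ran from 43.1 to 72.1. PCNA, the clamp, was at 162, 160 and 159 in WT and 161, 171 and 183 in KO, with overlapping groups. CCND1 was at 39.4, 50.7 and 55.3 in WT and 37.5, 31.8 and 43.6 in KO, also overlapping. Separation on this scale was not particular to POLA1 and RRM2. Of the 40 members other than MCM2-7, 18 were higher in KO without overlap (45%, against 7.36% of all genes tested) and 0 lower (against 4.23%). The order of the MCM2-7 sum within WT was that of 87% of the members in CPM and of 22.8% of all genes. Division by that sum thus evens out the libraries for the members more than for other genes, and the shares of all genes are not a like comparison. MCM2-7 had one of the lower median fold changes of the roles (-0.12), which raises every ratio to it in KO, and all the ratios share this denominator.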
